A study of Mus musculus with 20 samples.

Results

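The Notch signalling genes described here are 10 named members of the pathway in the mouse abdominal aorta: the receptors Notch1, Notch2, Notch3 and Notch4, the ligands Jag1, Jag2 and Dll4, and the target genes Hey1, Heyl and Hes1. They were chosen by name, and all 10 were among the 12645 genes tested. RNA sequencing covered 4 groups of 5 mice, of which 3 groups with 15 libraries are used here. The groups are mice labelled KO given angiotensin II at 500 ng/kg/min (KO Ang II), wild-type mice given the same dose (WT Ang II), and wild-type mice given saline (WT saline). Angiotensin II narrows arteries and is infused to make mice hypertensive. DAPK1, a kinase with a part in cell death, is in the series title, while the sample labels say only KO. The KO saline group is not used, because its tables list 0 of the members' transcripts. Each library is 1 animal and carries its title as name, with NS for saline (WTNS_369).

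Notch receptors sit in the cell membrane and are activated by ligands on a neighbouring cell. Ligand binding lets ADAM proteases and then gamma-secretase cut the receptor, and the freed intracellular part enters the nucleus, where it joins the DNA-binding protein RBPJ and switches on HES and HEY genes. In arteries Notch1, Notch4 and the ligand Dll4 are known from the endothelium and from arterial identity, Notch3 and its target Heyl are known from smooth muscle, and Jag1 is known from both layers.

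The sequencing depth, worked out from the low values, was 70.1 to 73.5 megareads in KO Ang II, 59.0 to 74.4 in WT Ang II and 62.8 to 67.1 in WT saline. Dapk1 averaged 8.58 ± 3.51 FPKM in KO Ang II, 10.7 ± 5.79 in WT Ang II and 12.1 ± 2.39 in WT saline (SD, n = 5 each), and its KO Ang II values of 4.997 to 13.8 lay within the WT range of 3.96 to 19.9, so its RNA does not check the KO label. The 10 smooth muscle and 14 endothelial markers were listed above 0 in every group, with smooth muscle sums of 5723 to 10370, 7067 to 14740 and 5867 to 13180 FPKM in KO Ang II, WT Ang II and WT saline. Markers of other tissues were listed too, and varied between libraries. Intestinal epithelium markers, of which 9 of 10 were listed, summed to 24.3 to 54.7 FPKM in all KO Ang II libraries and to 16.7 and 15.7 in WT Ang II libraries WTAngII580 and WTAngII581, against at most 0.383 in the 3 other WT Ang II libraries and 0.909 in WT saline, where 8 of the 9 were at 0. Brown adipocyte markers, all 8 listed, summed to 343.4 to 2385 FPKM in KO Ang II, 141.9 to 2390 in WT Ang II and 560.2 to 3117 in WT saline. Sympathetic neuron markers, all 9 listed, summed to 4.88 to 887.9, 0.993 to 139.2 and 3.81 to 462.5 FPKM, again in KO Ang II, WT Ang II and WT saline. For the 12 skeletal muscle markers, the sums were 2.31 to 39.8, 3.67 to 240.0 and 2.28 to 299.9 FPKM in the same groups, with Myh1, Myh2 and Myh4 at 0 in KO Ang II. Unlisted transcripts count as 0, so a marker at 0 may be one that the tables do not list. That holds for Vil1 and Reg3g, at 0 in both WT groups, and for Myh1, Myh2 and Myh4 in KO Ang II. All WT tables list the same transcripts. The other intestinal markers at 0 in WT saline were above 0 in WT Ang II, so they were listed.

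FPKM count fragments relative to transcript length and library size, and so set genes of different lengths on 1 scale. By mean FPKM over the 15 libraries, Heyl stood highest at 36.8 FPKM and lay above the next gene in all 15 libraries. Notch3, Notch2 and Jag1 followed at 12.9, 12.6 and 12.3 FPKM. These 3 genes could not be ordered, since Notch3 exceeded Notch2 in 8 of 15 libraries and Notch2 exceeded Jag1 in 7. Jag1 lay above Notch1, the next gene, in 13 libraries. Notch1, Hes1 and Notch4 formed a second level at 7.93, 7.36 and 7.01 FPKM, with Notch1 above Hes1 in 10 libraries and Hes1 above Notch4 in 7. Notch4 lay above Jag2 in 14. Jag2 at 4.20, Hey1 at 3.08 and Dll4 at 1.72 FPKM were the lowest. Jag2 lay above Hey1 in 12 libraries and Hey1 above Dll4 in 13. The reads behind these levels, worked out from FPKM, length and depth, were 4860 to 17608 per library for Heyl and 0 to 950 for Dll4.

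**Figure D1:**
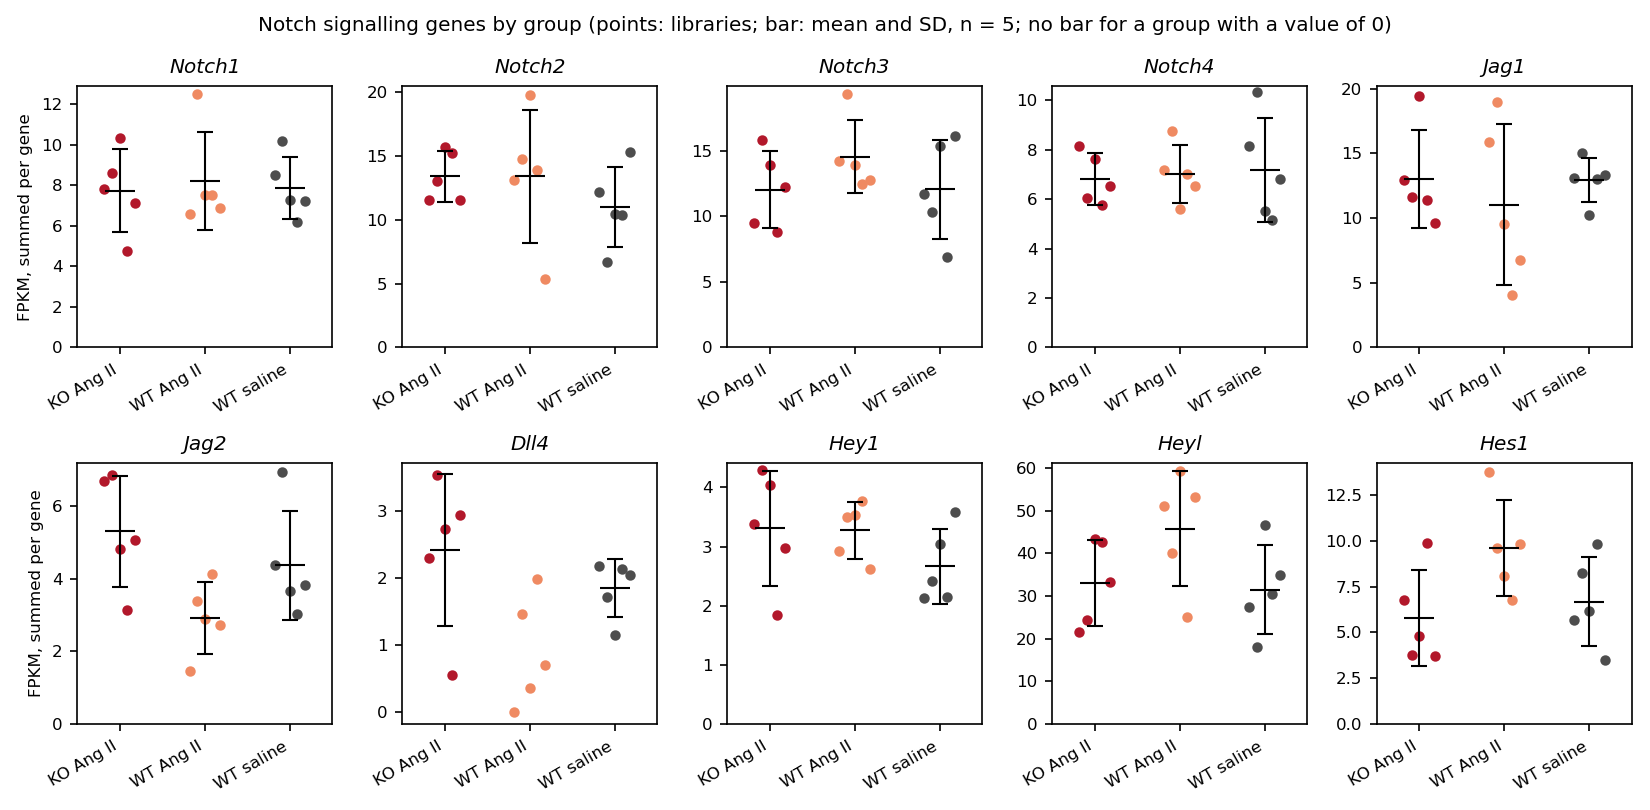
FPKM summed per gene (y axis, from 0) of the 10 Notch signalling genes in KO Ang II, WT Ang II and WT saline. Points are libraries, and bars are the mean and SD of 5 libraries, left out for Dll4 in WT Ang II, where 1 library is listed at 0; the groups overlap for every gene.

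None of the 10 genes passed in any of the 3 comparisons (limma on log2(FPKM + 1), Benjamini-Hochberg adjusted p under 0.05). Over all genes tested, 0% were called in WT Ang II versus WT saline and 0% in KO Ang II versus WT Ang II. For KO Ang II versus WT saline the share was 0.103%, or 13 genes, of which 5 are intestinal epithelium markers. That count was 0 with brown adipocyte, sympathetic neuron and skeletal muscle marker means as covariates. It was also 0 without animals numbered below 500 (WTNS_369, WTNS_373 and KOAng_II402), a setting that leaves smaller groups. Without adjustment, a p under 0.05 was reached by 0 of the 10 in WT Ang II versus WT saline, beside 4.88% of all genes. It was reached by 3 of the 10 in KO Ang II versus WT Ang II, beside 7.94% of all genes, and these were Jag2, Dll4 and Hes1. It was reached by 0 of the 10 in KO Ang II versus WT saline, beside 8.37% of all genes. By voom on the worked-out reads, 0 of the 10 passed in each comparison. There, 0, 2 and 0 had an unadjusted p under 0.05, beside 558, 889 and 970 of the 12645 genes. These unadjusted counts depended on the setting. In KO Ang II versus WT Ang II the 3 stood beside 1004 of the 12645 genes. The 3 became 0 with brown adipocyte, sympathetic neuron and skeletal muscle covariates, beside 702 of 12645. With only transcripts listed in all 15 libraries they became 2, beside 891 of 12546 genes. Among the libraries that carry intestinal transcripts, 5 of KO Ang II and 2 of WT Ang II, the count was 1, beside 416 of 12645. That gene was Jag1, at 1.13 (SE 0.25), and not one of the 3. There Jag2, Dll4 and Hes1 stood at 0.49 (SE 0.30), 0.51 (SE 0.38) and -0.51 (SE 0.38). Without WTAngII580 the count was 4, beside 1927 of 12645. In WT Ang II versus WT saline the 0 stood beside 617 of the 12645 genes. The 0 became 3 with endothelial and smooth muscle covariates, beside 785 of 12645, and 3 without WTAngII580, beside 1129. Among the libraries without intestinal transcripts, 3 of WT Ang II and 5 of WT saline, it became 3, beside 987. In every comparison the 2 groups overlapped for all 10 genes, while 0.996%, 1.12% and 1.83% of all genes did not overlap in WT Ang II versus WT saline, KO Ang II versus WT Ang II and KO Ang II versus WT saline. The members' median log2 difference was 0.12, -0.02 and 0.05 in these comparisons, beside 0.01, -0.01 and 0.02 over all genes. The first 2 comparisons share the WT Ang II libraries, so a value that is high or low there enters both, with opposite sign.

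**Figure D2:**
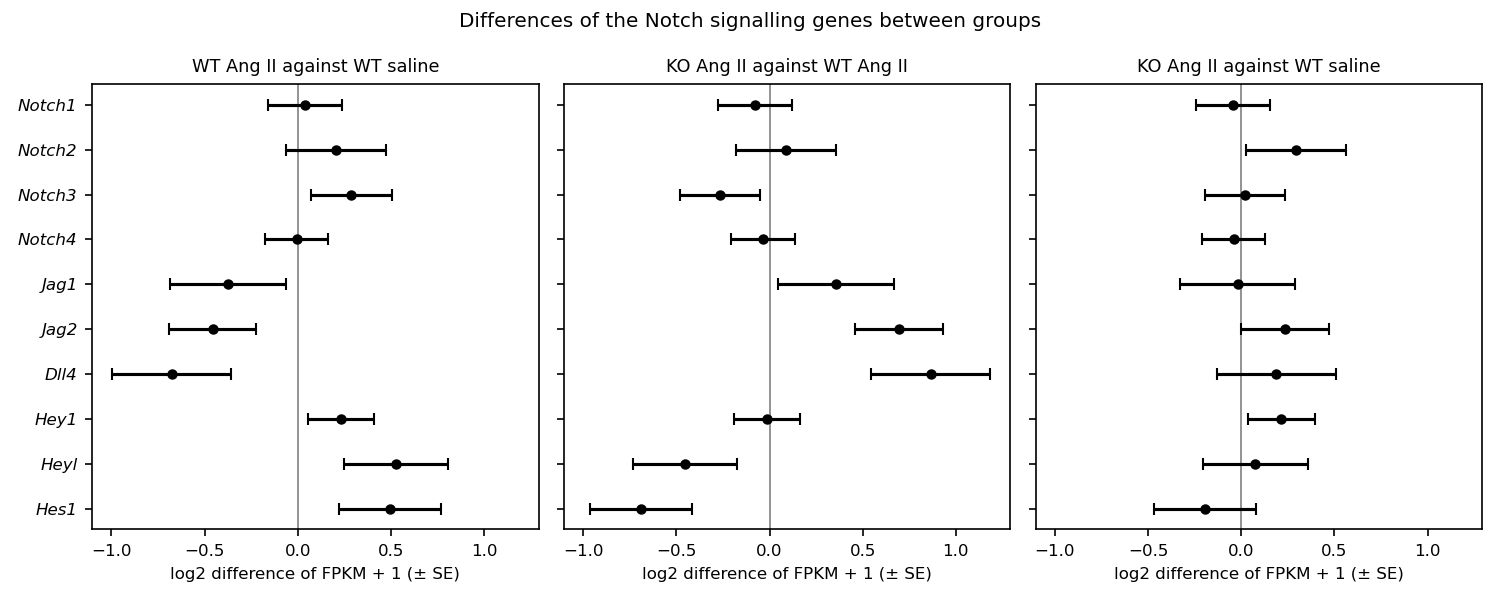
Log2 difference of FPKM + 1 (x axis, point) with its standard error (bar) for each Notch signalling gene in the 3 comparisons, from limma. Dll4, Jag2 and Hes1 lie farthest from 0 in KO Ang II versus WT Ang II, at 0.87, 0.69 and -0.69, and none passed the adjusted threshold; on transcripts listed in all 15 libraries Jag2 is at 0.45, level with the -0.45 of Heyl in size.

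Of the 3 ligands, Dll4 and Jag2 stood farther from 0 than Jag1 in KO Ang II versus WT Ang II, at 0.87 and 0.69 against 0.36, although Jag2 was at 0.45 on transcripts listed in all 15 libraries. The promoters of the 3 ligands are shown so that their letters can be compared. Each sequence is the RefSeq promoter window of 300 bases on GRCm38.p6, 5′ to 3′ on the strand of the gene, with CACGCG or its reverse complement CGCGTG in capitals, letters that HES and HEY proteins can bind. The windows are chr2:119325534-119325833 on the plus strand for Dll4, chr12:112929446-112929745 on the minus strand for Jag2 and chr2:137116471-137116770 on the minus strand for Jag1.
Dll4: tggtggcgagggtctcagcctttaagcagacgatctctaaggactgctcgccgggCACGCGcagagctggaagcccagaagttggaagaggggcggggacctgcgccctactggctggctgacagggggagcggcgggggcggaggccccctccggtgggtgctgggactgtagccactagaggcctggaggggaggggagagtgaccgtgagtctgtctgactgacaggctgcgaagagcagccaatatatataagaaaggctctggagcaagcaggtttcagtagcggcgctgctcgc
Jag2: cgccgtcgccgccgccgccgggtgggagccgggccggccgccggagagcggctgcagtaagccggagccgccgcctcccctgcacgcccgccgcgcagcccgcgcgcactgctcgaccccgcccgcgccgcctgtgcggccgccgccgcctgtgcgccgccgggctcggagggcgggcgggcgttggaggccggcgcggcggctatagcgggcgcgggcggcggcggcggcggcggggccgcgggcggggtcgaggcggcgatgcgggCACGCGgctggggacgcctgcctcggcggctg
Jag1: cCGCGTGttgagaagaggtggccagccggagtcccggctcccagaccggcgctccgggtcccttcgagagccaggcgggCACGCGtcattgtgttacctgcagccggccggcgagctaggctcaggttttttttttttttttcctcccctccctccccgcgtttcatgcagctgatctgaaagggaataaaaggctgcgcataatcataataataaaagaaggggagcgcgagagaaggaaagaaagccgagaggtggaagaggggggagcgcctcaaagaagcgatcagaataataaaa

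Among the 7 members with a RefSeq window (the 4 receptors and the 3 ligands), CACGCG was in 4, namely Dll4, Jag1, Jag2 and Notch2, and in 9.27% of all 32851 windows. It began at -195 in Dll4, 19 in Jag2, -249 and -171 in Jag1 and -42 in Notch2. Positions are counted in bases from the RefSeq start on which each window is built, and the Jag2 match lies after that start. For Jag2, Jag1, Notch1, Notch2 and Notch4 this start lies inside the GENCODE gene, not at the gene start given below. The whole Notch1 window, chr2:26503773-26504072, lies inside its gene, which spans 26457903 to 26516663. CACGTG, an E-box, was in 0 of the 7 and in 7.15% of all windows, and TGGGAA, the core of the RBPJ site, was in 0 of the 7 and in 25.6%, both strands searched for each. CACGTG and CACGCG were counted apart. The members' windows were rich in G and C, at 86% for Jag2, 73% for Notch2, 70% for Notch3, 68.3% for Notch1, 63.7% for Dll4, 58.3% for Notch4 and 55.7% for Jag1, beside a mean of 53.8% over all windows. These matches describe letters and show no binding, and the shares over all windows are not matched for G and C content.

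Dll4 (ENSMUSG00000027314.6, chromosome 2, 119325784 to 119335962, plus strand, GRCm38) is the Delta-like ligand of arterial endothelium. Its level was 2.30, 3.54, 2.74, 0.556 and 2.94 FPKM in KO Ang II libraries KOAng_II402, KOAngII537, KOAngII560, KOAngII612 and KOAngII628. In WT Ang II libraries WTAng_II519, WTAng_II536, WTAngII568, WTAngII580 and WTAngII581 it was listed at 0, 1.47, 0.362, 1.98 and 0.709 FPKM. WT saline libraries WTNS_369, WTNS_373, WTNS_523, WTNS_547 and WTNS_550 had 2.18, 1.72, 1.15, 2.14 and 2.05 FPKM. The KO Ang II libraries other than KOAngII612 lay above every WT Ang II library, KOAngII612 lay inside their range, and the WT saline values stood close together. KO Ang II stood at 0.87 against WT Ang II on the log2 scale (SE 0.32, limma adjusted p = 0.622), and WT Ang II stood at -0.68 against WT saline (SE 0.32, adjusted p = 0.941).

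The size of the Dll4 difference depended on how low values were handled. With a pseudocount of 0.1 the log2 difference of KO Ang II versus WT Ang II was 1.73, and by voom on worked-out reads it was 2.78. In WT Ang II versus WT saline these values were -1.54 and -2.61. The listed 0 in WTAng_II519 weighs on both. That library had 173 tested genes at 0, against 48 to 120 in the 14 others, and its endothelial markers summed to 369.5 FPKM, inside the range of its group. Without WTAng_II519 the difference of KO Ang II versus WT Ang II was 0.66, and without KOAngII612 it was 1.13. With brown adipocyte, sympathetic neuron and skeletal muscle marker means as covariates it was 0.23, and that of WT Ang II versus WT saline was -0.22. Among the libraries that carry intestinal transcripts, 5 of KO Ang II and 2 of WT Ang II, it was 0.51.

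Jag2 (ENSMUSG00000002799.6, chromosome 12, 112907819 to 112929776, minus strand) codes for the second Jagged ligand. KO Ang II animals had 6.69, 6.86, 4.82, 3.14 and 5.07 FPKM, in the order of libraries given for Dll4. WT Ang II animals had 1.45, 3.38, 2.89, 4.14 and 2.72 FPKM, and WT saline animals 4.37, 6.94, 3.68, 3.04 and 3.83. KOAngII612 was the only KO Ang II library below the highest WT Ang II library, and the KO Ang II and WT saline ranges lay over each other. KO Ang II stood at 0.69 against WT Ang II on the log2 scale (SE 0.24, limma adjusted p = 0.611), WT Ang II stood at -0.46 against WT saline (adjusted p = 0.941), and KO Ang II at 0.24 against WT saline (adjusted p = 0.857).

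Part of the Jag2 sum in KO Ang II came from transcripts that the WT tables do not list. The retained-intron transcripts ENSMUST00000220855 and ENSMUST00000221696 added 0.102 to 0.914 and 0.112 to 1.03 FPKM per KO Ang II library. Transcript ENSMUST00000075827, the protein-coding one listed for all 15 libraries, had 5.02, 5.63, 4.02, 2.61 and 4.22 FPKM in KO Ang II, and the WT values above are that transcript alone. On this transcript the KO Ang II and WT Ang II ranges overlapped more, with WTAngII580 above 2 KO Ang II libraries. With only transcripts listed in all 15 libraries the log2 difference of KO Ang II versus WT Ang II was 0.45 (SE 0.23, limma adjusted p = 0.674), and that against WT saline was -0.01. With the same marker covariates as for Dll4, KO Ang II versus WT Ang II was 0.20 and WT Ang II versus WT saline was -0.0628. Without WTAng_II519, WT Ang II versus WT saline was -0.30.

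Jag1 (ENSMUSG00000027276.7, chromosome 2, 137081456 to 137116644, minus strand) was the most abundant of the 3 ligands. Its level was 13.0, 11.6, 19.4, 11.4 and 9.63 FPKM in KO Ang II, 15.9, 18.9, 9.51, 4.04 and 6.78 in WT Ang II, and 13.1, 15.02, 10.2, 13.0 and 13.3 in WT saline. WT Ang II held both a high pair of libraries, WTAng_II519 and WTAng_II536, and a low pair, WTAngII580 and WTAngII581, while WT saline was tight. The coefficient of variation was 29.0% in KO Ang II, 56.5% in WT Ang II and 13.4% in WT saline, and the difference in spread was not tested. KO Ang II stood at 0.36 against WT Ang II (limma adjusted p = 0.730) and at -0.02 against WT saline (adjusted p = 0.995), and WT Ang II at -0.38 against WT saline (adjusted p = 0.941). With endothelial and smooth muscle marker means as covariates, KO Ang II stood at 0.67 against WT Ang II (limma adjusted p = 0.811) and WT Ang II at -0.65 against WT saline (adjusted p = 0.790). With brown adipocyte, sympathetic neuron and skeletal muscle covariates these values were 0.56 and -0.74. Without WTAngII580 they were 0.0853 and -0.10, and without WTAng_II536 they were 0.58 and -0.60. KO Ang II versus WT Ang II was 0.21 without KOAngII560. By intestinal transcripts, 5 KO Ang II libraries against 2 WT Ang II libraries gave 1.13, and 3 WT Ang II libraries against 5 WT saline libraries gave 0.14, of the other sign.

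As a share of the summed FPKM of the 3 ligands, Jag1 had a median of 59.0% in KO Ang II (52.8 to 75.6%), 74.5% in WT Ang II (39.7 to 91.6%) and 67.9% in WT saline (63.4 to 71.5%). Dll4 took a median of 10.49% in KO Ang II, 6.18% in WT Ang II and 10.7% in WT saline. Jag2 took 28.8% in KO Ang II, 22.6% in WT Ang II and 22.2% in WT saline. The KO Ang II shares count the retained-intron Jag2 transcripts that the WT tables do not list. Without them the KO Ang II shares of Jag2 would be lower and those of Jag1 and Dll4 higher. Within WT Ang II, WTAngII580 had 40.8% Jag2 and 19.5% Dll4, and WTAng_II519 was at the other end with 8.38% Jag2 and Dll4 listed at 0. Every Jag1 share of WT saline lay inside the WT Ang II range.

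**Figure D3:**
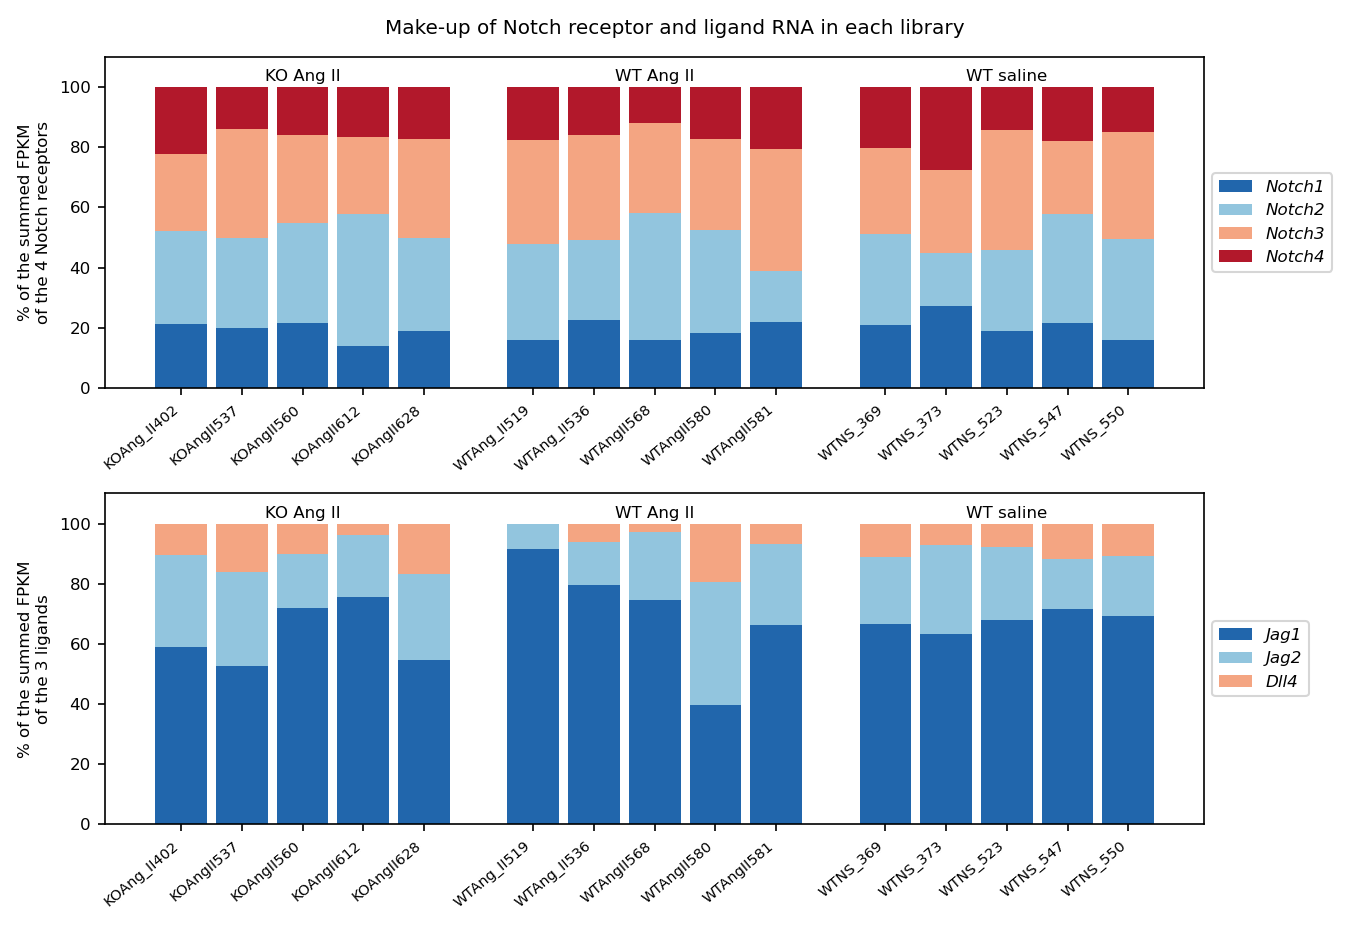
Share of each gene in the summed FPKM of the 4 Notch receptors (top) and of the 3 ligands (bottom), in percent (y axis), for each library (x axis). The receptor make-up had medians within 28.9% to 34.6% for Notch3 in the 3 groups, and among the ligands WTAng_II519 and WTAngII580 stand at the 2 ends of the Jag1 share. The Jag2 share in KO Ang II counts retained-intron transcripts that the WT tables do not list.

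Among the receptors, Notch3 (ENSMUSG00000038146.8, chromosome 17, 32120820 to 32166852, minus strand), the receptor of arterial smooth muscle, averaged 12.1 ± 2.96 FPKM in KO Ang II, 14.5 ± 2.77 in WT Ang II and 12.1 ± 3.78 in WT saline (SD, n = 5 each). Its level was 9.46, 15.8, 13.9, 8.78 and 12.3 FPKM in KO Ang II, 14.2, 19.3, 13.9, 12.5 and 12.8 in WT Ang II, and 11.7, 10.3, 15.3, 6.87 and 16.1 in WT saline. The WT Ang II values started higher than those of both other groups, and the ranges overlapped. KO Ang II stood at -0.27 against WT Ang II (SE 0.22, limma adjusted p = 0.707) and at 0.02 against WT saline, and WT Ang II at 0.29 against WT saline (SE 0.22, adjusted p = 0.941). The 10 smooth muscle markers had a median log2 difference of -0.41 in KO Ang II versus WT Ang II and 0.26 in WT Ang II versus WT saline, and 0 of them passed in either, with 1 and 0 at an unadjusted limma p under 0.05. With endothelial and smooth muscle marker means as covariates, the Notch3 values were -0.25 and 0.27. KO Ang II versus WT Ang II was -0.17 without WTAng_II536, -0.17 without KOAngII612, and -0.0930 among the 5 KO Ang II and 2 WT Ang II libraries with intestinal transcripts. WT Ang II versus WT saline was 0.12 without WTNS_547 and 0.19 without WTAng_II536. In a bulk sample, fewer cells of a type and less RNA per cell cannot be told apart.

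Notch2 (ENSMUSG00000027878.11, chromosome 3, 98013527 to 98150361, plus strand), a receptor expressed in many tissues and in vascular smooth muscle, had 11.5, 13.0, 15.7, 15.2 and 11.6 FPKM in KO Ang II. It had 13.1, 14.8, 19.7, 13.9 and 5.35 FPKM in WT Ang II and 12.2, 6.67, 10.47, 10.4 and 15.3 in WT saline. The KO Ang II libraries lay inside the WT Ang II range, whose low end was WTAngII581 alone. The log2 differences were 0.09 for KO Ang II versus WT Ang II, 0.20 for WT Ang II versus WT saline and 0.29 for KO Ang II versus WT saline, with limma adjusted p of 0.939, 0.949 and 0.848. Single libraries moved these values. KO Ang II versus WT Ang II was -0.18 without WTAngII581 and 0.24 without WTAngII568. WT Ang II versus WT saline was 0.0481 without WTAngII568, 0.0535 without WTNS_373, 0.33 without WTNS_550 and 0.48 without WTAngII581. KO Ang II versus WT saline was 0.14 without WTNS_373. Among libraries alike in intestinal transcripts the first 2 were 0.55 and 0.51.

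Notch1 (ENSMUSG00000026923.15, chromosome 2, 26457903 to 26516663, minus strand), which acts in endothelium among other cells, averaged 7.72 ± 2.04 FPKM in KO Ang II, 8.20 ± 2.44 in WT Ang II and 7.86 ± 1.54 in WT saline (SD, n = 5 each). Its values were 7.82, 8.61, 10.3, 4.75 and 7.11 FPKM in KO Ang II, 6.59, 12.5, 7.51, 7.54 and 6.87 in WT Ang II, and 8.48, 10.2, 7.29, 6.16 and 7.20 in WT saline. WTAng_II536 was the high library, and the other 4 of its group lay within the WT saline range. The log2 differences were within 0.08 of 0 in all 3 comparisons, namely -0.08 for KO Ang II versus WT Ang II, 0.04 for WT Ang II versus WT saline and -0.04 for KO Ang II versus WT saline.

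Notch4 (ENSMUSG00000015468.14, chromosome 17, 34564268 to 34588503, plus strand), the endothelial receptor, averaged 6.82 ± 1.04 FPKM in KO Ang II, 7.01 ± 1.16 in WT Ang II and 7.19 ± 2.10 in WT saline (SD, n = 5 each). Its values were 8.17, 6.03, 7.62, 5.74 and 6.52 FPKM in KO Ang II, 7.18, 8.76, 5.59, 7.01 and 6.53 in WT Ang II, and 8.15, 10.3, 5.53, 5.16 and 6.81 in WT saline. Both the lowest and the highest library were of WT saline. Its log2 differences were -0.03, -0.01 and -0.04 in KO Ang II versus WT Ang II, WT Ang II versus WT saline and KO Ang II versus WT saline (SE 0.17 each, limma adjusted p 0.968, 0.997 and 0.971). Endothelial markers summed to medians of 377.2, 365.8 and 349.5 FPKM in KO Ang II, WT Ang II and WT saline.

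Of the summed FPKM of the 4 receptors, Notch3 took a median of 29.3% in KO Ang II, 34.6% in WT Ang II and 28.9% in WT saline, and Notch2 took 31.2%, 31.9% and 30.1% in the same order of groups. In KO Ang II, WT Ang II and WT saline, Notch1 took 19.8%, 18.4% and 20.9%, and Notch4 took 16.6%, 17.1% and 18.04%. Notch2 and Notch3 had the 2 highest medians in each group.

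Hes1 (ENSMUSG00000022528.8, chromosome 16, 30064384 to 30067796, plus strand) codes for a repressor of transcription that many signals besides Notch control. It had 6.75, 3.76, 4.80, 9.88 and 3.71 FPKM in KO Ang II, 13.7, 9.62, 8.09, 6.77 and 9.82 in WT Ang II, and 5.69, 8.25, 6.15, 9.83 and 3.47 in WT saline. The KO Ang II libraries other than KOAngII612 lay below every WT Ang II library, and KOAngII612 lay above 4 of them. KO Ang II stood at -0.69 against WT Ang II on the log2 scale (SE 0.27, limma adjusted p = 0.622), WT Ang II at 0.50 against WT saline (SE 0.27, adjusted p = 0.941), and KO Ang II at -0.19 against WT saline (adjusted p = 0.900). With brown adipocyte, sympathetic neuron and skeletal muscle covariates the first 2 values were -0.46 and 0.19. WT Ang II versus WT saline was 0.32 without WTNS_550.

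Heyl (ENSMUSG00000032744.4, chromosome 4, 123233556 to 123249875, plus strand), a HEY-family repressor of smooth muscle, had 21.7, 24.3, 43.3, 42.7 and 33.3 FPKM in KO Ang II. It had 51.2, 40.1, 59.2, 25.0 and 53.2 FPKM in WT Ang II and 27.3, 18.1, 46.6, 30.5 and 35.0 in WT saline. The WT Ang II libraries WTAng_II519, WTAngII568 and WTAngII581 lay above every library of both other groups, and WTAngII580 lay among the low ones. KO Ang II stood at -0.45 against WT Ang II (SE 0.28, limma adjusted p = 0.651), WT Ang II at 0.53 against WT saline (SE 0.28, adjusted p = 0.941), and KO Ang II at 0.08 against WT saline (adjusted p = 0.967). With the covariates named for Hes1, the value of KO Ang II versus WT Ang II was 0.11, of the other sign, and that of WT Ang II versus WT saline was 0.09. WT Ang II versus WT saline was 0.35 without WTNS_373.

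Hey1 (ENSMUSG00000040289.8, chromosome 3, 8663359 to 8667256, minus strand), the HEY-family repressor of endothelium, had 3.38, 4.30, 4.04, 1.85 and 2.97 FPKM in KO Ang II, 2.93, 3.51, 3.54, 3.77 and 2.61 in WT Ang II, and 2.14, 2.42, 3.05, 2.14 and 3.59 in WT saline. The KO Ang II libraries held both the highest and the lowest value. Its log2 differences were -0.01 for KO Ang II versus WT Ang II, 0.23 for WT Ang II versus WT saline and 0.22 for KO Ang II versus WT saline (limma adjusted p 0.989, 0.941 and 0.823). Among the 3 target genes, Hes1 and Heyl thus had negative values and Hey1 a value near 0 in KO Ang II versus WT Ang II, none past the threshold.

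Some libraries stood at the end of their group for several members, and differed in marker RNA too. KO Ang II library KOAngII612 had the lowest Dll4, Jag2, Notch1, Notch3, Notch4 and Hey1 and the highest Hes1 of its group, and its endothelial marker sum, 224.6 FPKM, was the lowest of all libraries. WT Ang II library WTAngII580 had the highest Dll4 and Jag2 and the lowest Heyl, Hes1 and Jag1 of its group, with brown adipocyte markers at 2390 and smooth muscle markers at 7067 FPKM, the highest and the lowest sum of that group. WT Ang II library WTAng_II536 had the highest Notch1, Notch3, Notch4 and Jag1 of its group, with endothelial markers at 772.6 FPKM against 319.3 to 369.5 in the 4 others. The part of these tissues in the members' values was not tested beyond the covariate values given.

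The genes whose pattern over the 15 libraries was most like that of Notch3, by Pearson's r of log2(FPKM + 1), were Itga1 (r = 0.805, Spearman's rho = 0.814), which codes for an integrin alpha subunit, Pcdh9 (r = 0.789, rho = 0.879), which codes for a protocadherin, and the pseudogene Oaz1-ps (r = 0.777, rho = 0.693). Most like Notch4 were Fgd5 (r = 0.838, rho = 0.836), which codes for an endothelial exchange factor, Hspa12b (r = 0.826, rho = 0.836), which codes for a heat shock protein of endothelium, and Prodh (r = 0.823, rho = 0.821), which codes for proline dehydrogenase. These correlations are descriptions over libraries that share groups and tissue make-up, and reads of Oaz1-ps may be shared with its parent gene.

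Outside the 10 members, 59 other genes of the pathway were listed by role, of which 54 were in the tables and 51 were tested. None passed in any comparison. Errors after ± are SD over the 5 libraries of a group. At an unadjusted limma p under 0.05 there were 3 in WT Ang II versus WT saline and 6 in KO Ang II versus WT Ang II, with 7 for KO Ang II set against WT saline, of 51 each, beside 4.88%, 7.94% and 8.37% of all genes. Positive differences numbered 32 of 51, 18 of 51 and 26 of 51 in these comparisons, and the medians were 0.09, -0.07 and 0.00 on the log2 scale, beside the 0.01, -0.01 and 0.02 of all genes.

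**Figure D4:**
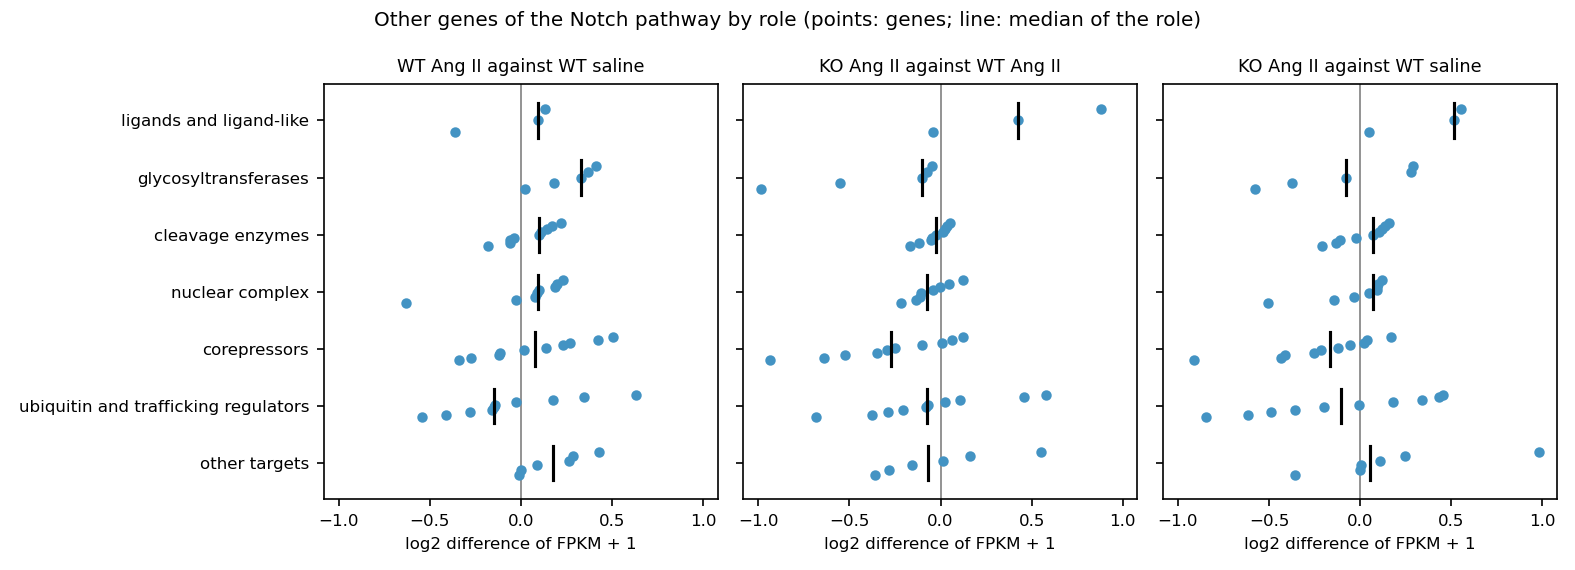
Log2 difference of FPKM + 1 (x axis) of the 51 other pathway genes tested, by role (rows), in the 3 comparisons; points are genes and the line is the median of the role. The corepressors have their median at -0.27 in KO Ang II versus WT Ang II, and 0 genes passed in any panel.

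Among ligands and ligand-like genes, 3 of 6 were tested. Dner, a non-canonical ligand of neurons, averaged 5.21 FPKM in KO Ang II, 2.67 in WT Ang II and 2.74 in WT saline, beside the sympathetic neuron sums above. Dll1, another Delta-like ligand, averaged 3.46, 3.65 and 3.23 FPKM in KO Ang II, WT Ang II and WT saline.

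All 5 glycosyltransferases, which add sugars to the receptors, were tested. Poglut1, which adds glucose, averaged 17.8, 19.1 and 18.9 FPKM in KO Ang II, WT Ang II and WT saline, and Pofut1, which adds fucose, averaged 5.73 ± 4.39, 10.46 ± 2.87 and 8.64 ± 4.27 FPKM in KO Ang II, WT Ang II and WT saline. The Pofut1 value of KO Ang II versus WT Ang II, -0.99 (SE 0.48, limma adjusted p = 0.622), lay farthest from 0 of the 51 genes in that comparison. All 5 glycosyltransferases had positive values in WT Ang II versus WT saline and negative values in KO Ang II versus WT Ang II, none past the threshold. Both comparisons share the WT Ang II libraries, which enter with opposite sign. Some values were smaller than their SE, such as Poglut1 at 0.02 (SE 0.14) in WT Ang II versus WT saline. Lfng at -0.05 (SE 0.29) and Mfng at -0.07 (SE 0.23) were so in KO Ang II versus WT Ang II.

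The 9 cleavage enzymes were near level, with medians of -0.03, 0.10 and 0.07 in KO Ang II versus WT Ang II, WT Ang II versus WT saline and KO Ang II versus WT saline. Psenen, a gamma-secretase subunit, averaged 37.0, 36.3 and 37.9 FPKM, and Ncstn, the nicastrin subunit, averaged 30.9, 33.6 and 28.6 FPKM in KO Ang II, WT Ang II and WT saline. In the nuclear complex, with 8 of 8 tested, Rbpj averaged 18.4 ± 3.50, 18.8 ± 1.87 and 17.9 ± 3.64 FPKM and Snw1, an RBPJ-binding co-regulator, 23.4, 23.5 and 21.9 FPKM in KO Ang II, WT Ang II and WT saline.

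Of the 10 corepressors, 7 had negative values in KO Ang II versus WT Ang II, with a median of -0.27, beside -0.01 over all genes. Aes, a short Groucho-family protein, averaged 33.2 ± 3.90 FPKM in KO Ang II, 41.5 ± 9.16 in WT Ang II and 44.5 ± 5.10 in WT saline, and stood at -0.41 in KO Ang II versus WT saline (SE 0.14, limma adjusted p = 0.425). Hdac2, a histone deacetylase, averaged 27.8, 26.6 and 29.0 FPKM in the same groups. Tle2, a Groucho-family corepressor named after its values were seen, averaged 2.42 ± 0.716 FPKM in KO Ang II, 4.28 ± 0.724 in WT Ang II and 5.55 ± 2.05 in WT saline, and stood at -0.91 in KO Ang II versus WT saline (SE 0.19, limma adjusted p = 0.130).

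Among ubiquitin and trafficking regulators, 10 of 13 were tested. Itch, a ubiquitin ligase of Notch, averaged 14.9 ± 8.07, 16.5 ± 9.33 and 20.9 ± 6.41 FPKM, and Dtx3, a Deltex-family ligase, 15.8, 11.2 and 13.0 FPKM in KO Ang II, WT Ang II and WT saline. Of the 6 other targets tested, Id1, which BMP signals also induce, averaged 40.04 FPKM in KO Ang II, 49.5 in WT Ang II and 46.0 in WT saline. Hey2, the third HEY gene, averaged 15.3 ± 4.08 FPKM in KO Ang II, 19.7 ± 3.08 in WT Ang II and 19.5 ± 2.03 in WT saline. Its log2 difference was -0.36 (SE 0.16) both for KO Ang II versus WT Ang II and for KO Ang II versus WT saline, with limma adjusted p of 0.622 and 0.576. Ccnd1, a cyclin gene also named after its values were seen, lay the other way: it averaged 12.1 ± 2.04 FPKM in KO Ang II, 8.03 ± 1.88 in WT Ang II and 5.83 ± 2.10 in WT saline. It stood at 0.55 in KO Ang II versus WT Ang II (SE 0.21, limma adjusted p = 0.622) and at 0.98 in KO Ang II versus WT saline (adjusted p = 0.137).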

How the data were processed

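TRIzol RNA (1 µg per library) went into the NEBNext Ultra kit, per the labels. The authors deposited FPKM per transcript for each library; the unit was read from the values. The submitters' processing notes name bcl2fastq, FastQC, fastp and mm10, without versions; the sources used here give no aligner or quantifier. The labels of the KO saline group disagree on genotype, and it was not used.

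GENCODE M21 (GRCm38) gave gene names to 32618 of 32654 Ensembl transcripts in the WT tables and 32908 of 32945 in the KO Ang II tables. FPKM were summed per gene, counting unlisted transcripts as 0. Of the members' 53 annotated transcripts 15 were listed, 13 of them in all 15 libraries. Transcripts that the authors assembled, 12.2% to 15.8% of listed FPKM, were left out. Of 15346 genes listed, 14604 were in both sets of tables, and 12645, those averaging 1 FPKM or more, were tested with limma 3.58.1 (trend and robust, R 4.3.3) on log2(FPKM + 1), with 15 libraries in 1 model and an adjusted p threshold of 0.05. The pseudocount of 1 shrinks differences of low genes. The fit was tested on simulated data, with a log2 change of 2 put into 200 genes of below-median spread. The members' differences in the main fit were smaller, so that test does not show how well such differences are found. Alternatives were another pseudocount, no filter, other treatments of unlisted transcripts, quantile normalization, voom on worked-out reads, marker covariates, and libraries left out. Values times transcript length fell within 0.05 of whole reads for 98.7% to 99.1% of values under 50 reads, which gave the depth. Members, lists and named genes (in each role the 2 with the highest mean, and the 3 most like Notch3 and Notch4) were chosen with earlier results of these data known.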

Additional observations from a re-analysis of the deposited data

Results flagged for a closer look

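WT Ang II library WTAng_II536 stood apart from its group in Notch1, at 12.5 FPKM against 6.59 to 7.54 in the 4 others, and in Notch3, at 19.3 FPKM against 12.5 to 14.2. In each gene the gap to the nearest library took more of the group's range than Dixon's critical value for 5 samples allows. Over 30 groups of values examined, these 2 stood apart, and chance gives about 1 in 20.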

How the results depend on the processing

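No member passed the threshold under any alternative: of 590 member differences, 0 passed and 49 had the other sign, and the lowest adjusted p (limma) was 0.222. Of 30 member and comparison pairs, 16 kept their sign throughout. In WT Ang II versus WT saline the other sign appeared for Notch1 with endothelial and smooth muscle covariates (-0.0292), for Notch4 by voom (0.0028), with brown adipocyte, sympathetic neuron and skeletal muscle covariates (0.0727), without animals numbered below 500 (0.23) and in the 3 WT Ang II and 5 WT saline libraries without intestinal transcripts (0.0156), and for Jag1 in the last of these (0.14). In KO Ang II versus WT Ang II it appeared in the 5 KO Ang II and 2 WT Ang II libraries with intestinal transcripts for Notch1 (0.0545) and Hey1 (0.0199), and with brown adipocyte, sympathetic neuron and skeletal muscle covariates for Heyl (0.11). In KO Ang II versus WT saline it appeared without animals numbered below 500 for Notch1 (0.10), Notch4 (0.13), Jag1 (0.0522) and Heyl (-0.0704), with endothelial and smooth muscle covariates for Jag1 (0.0173), and for Jag2 with only transcripts listed in all libraries (-0.0099) or with unlisted ones at 0.5 FPKM (-0.0211).

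Leaving out 1 library at a time gave, in WT Ang II versus WT saline, -0.11 to 0.12 for Notch1 and -0.10 to 0.12 for Notch4. In KO Ang II versus WT Ang II it gave -0.18 to 0.0686 for Notch1, -0.18 to 0.24 for Notch2, -0.10 to 0.0394 for Notch4 and -0.10 to 0.13 for Hey1. In KO Ang II versus WT saline it gave -0.14 to 0.10 for Notch1, -0.15 to 0.13 for Notch3, -0.14 to 0.0845 for Notch4, -0.16 to 0.0711 for Jag1 and -0.10 to 0.23 for Heyl.

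Counts over all genes ranged, on leaving out 1 library, from 0 to 1 in WT Ang II versus WT saline (1 without WTNS_550), from 0 to 7 in KO Ang II versus WT Ang II (7 without WTAngII580, 2 without WTAngII581), and from 7 (without KOAngII537; 8 without WTNS_547) to 15 in KO Ang II versus WT saline. The last count was 0 with brown adipocyte, sympathetic neuron and skeletal muscle covariates. It was also 0 without animals numbered below 500, where WT saline and KO Ang II had fewer libraries. The cause was not tested. No paired analysis was run because the labels give no pairing of animals between the groups. Worked-out reads per library were 0 to 950 for Dll4, 328 to 745 for Hey1 and 271 to 1110 for Hes1, the members with the fewest.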
